A study of Mus musculus with 8 samples.

Results

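The Kelch BTB genes are a family of adaptor proteins, named here by the gene symbols Klhl and Kbtbd followed by a number. All 40 genes with such a symbol, alone, in the gene column of the authors' deposited probe set table were taken, out of 19938 genes with a level in the series values, and all 40 had one. In that table Klhl40 carries its older symbol Kbtbd5 and Klhl41 its older symbol Kbtbd10. The symbol alone chose the members, and measured values entered only where a gene had several transcript clusters, of which the one with the highest mean over all arrays stood for it. That was so for Klhl31, Klhl32 and Kbtbd11. The family was taken up with earlier results of these data known, so its counts describe it and are set beside the same share over all genes.

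A Kelch BTB protein joins a BTB domain, which binds the scaffold cullin 3, to a row of kelch repeats, which hold the protein to be ubiquitinated. Cullin 3 also binds the RING protein Rbx1, and the small protein Nedd8 is attached to it to switch the ligase on. Skeletal muscle is rich in some of these adaptors, and in people faults in KLHL40, KLHL41 and KBTBD13 cause nemaline myopathy, a weakness with rod-shaped bodies in the muscle fibres. KLHL40 is known less for degrading than for stabilising its partners nebulin and leiomodin 3 on the thin filament.

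The samples were triceps muscles of mice aged 3 months, from 4 Nf1Prx1 mutants and 4 wild-type controls, with total RNA of each animal on its own Affymetrix Mouse Gene 1.0 ST array. Nf1Prx1 mice lack Nf1, the gene of the Ras-inactivating protein neurofibromin, where a Cre driven by the Prx1 limb enhancer was active, which is the limb bud mesenchyme. Muscle fibres and other cells outside that lineage may keep Nf1, and the labels do not give the sex of the animals or a batch. Nf1 itself had log2 levels of 8.81, 8.63, 8.73 and 8.72 in Nf1Prx1 arrays 1 to 4, against 8.82, 8.92, 8.98 and 8.69 in control arrays 1 to 4, and the groups overlapped (exact permutation test, two-sided, p = 0.171). The striated muscle genes Acta1, Ckm, Ttn and Des were high in every array, with means of 13.89, 13.84, 12.98 and 13.15 in Nf1Prx1 and 13.99, 13.95, 12.98 and 13.33 in control triceps. All levels are log2 values made by RMA, which have no zero level, and the number of arrays limits their precision.

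Nf1Prx1 array 1 and control array 1 stood apart from the rest. They held transcripts of brown adipocytes (list means of 10.33 in Nf1Prx1 array 1 and 10.64 in control array 1, against 8.68 to 8.81 in the other Nf1Prx1 arrays and 8.74 to 8.78 in the other controls) and of neutrophils (9.88 in Nf1Prx1 array 1 and 9.72 in control array 1, against 6.56 to 7.30 in the other Nf1Prx1 arrays and 6.57 to 6.72 in the other controls). The brown adipocyte means came mainly from Ucp1 and Cidea. In Nf1Prx1 array 1 and control array 1 Ucp1 was at 9.75 and 10.18, against 6.01 to 6.24 in the others. Cidea was at 10.38 and 10.26, against 5.80 to 6.32. Cox8b was also highest in array 1 of each group. Elovl3 did not follow (5.94 and 5.83, against 5.77 to 6.26), and Cox7a1 was lowest in Nf1Prx1 array 1 (12.16) but highest in control array 1 (13.02). In the whole muscle, fewer cells of a type and less RNA per cell cannot be told apart. The arrays carry numbers 1 to 4 in each group, and deviations from the group means correlated within each number (0.30 to 0.71 across genes). Arrays of different numbers correlated up to 0.30, so the numbers do not fully stand out. For this reason the fit over all genes is given without and with the number as a block. Without the block limma called 0 of 19938 genes (0% of genes, adjusted p under 0.05), while 2709 had an unadjusted p under 0.05. Below, rose and fell are used only of genes that passed in the limma fit with the block, and adjusted p values of single genes come from that fit and may be too small, since the pairing was read from the same arrays. Where only 1 standard error (SE) is given, it comes from the fit without the block.

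The promoter sequences of 4 muscle members are shown as a description, and their bearing on the transcript levels was not tested. They are the 250 bases before the RefSeq start of each gene (RefSeq, GRCm38.p6), 5′ to 3′ on the coding strand, and none of the bases comes from the transcript. Capitals mark the E-box CANNTG, the site type bound by myogenic factors such as MyoD, and the consensus of MEF2, another muscle transcription factor. Klhl40 lies at chr9:121777357-121777606 on the + strand, Klhl41 at chr2:69669870-69670119 (+), Klhl34 at chrX:157818185-157818434 (+) and Klhl31 at chr9:77636482-77636731 (+).
Klhl40: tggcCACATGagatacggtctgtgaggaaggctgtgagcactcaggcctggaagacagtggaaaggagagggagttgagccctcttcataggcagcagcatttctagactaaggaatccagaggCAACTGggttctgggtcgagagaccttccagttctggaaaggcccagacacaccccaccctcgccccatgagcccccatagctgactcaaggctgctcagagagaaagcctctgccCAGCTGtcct
Klhl41: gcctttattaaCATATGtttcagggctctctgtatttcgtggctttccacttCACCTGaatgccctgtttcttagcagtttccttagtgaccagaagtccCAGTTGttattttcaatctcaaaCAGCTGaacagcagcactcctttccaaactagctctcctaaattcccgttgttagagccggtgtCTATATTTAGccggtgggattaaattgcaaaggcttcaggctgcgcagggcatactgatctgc
Klhl34: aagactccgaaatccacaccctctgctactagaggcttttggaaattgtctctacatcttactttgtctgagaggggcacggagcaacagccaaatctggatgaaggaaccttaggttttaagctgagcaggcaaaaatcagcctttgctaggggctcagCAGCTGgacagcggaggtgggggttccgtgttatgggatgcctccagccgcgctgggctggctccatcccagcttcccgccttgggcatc
Klhl31: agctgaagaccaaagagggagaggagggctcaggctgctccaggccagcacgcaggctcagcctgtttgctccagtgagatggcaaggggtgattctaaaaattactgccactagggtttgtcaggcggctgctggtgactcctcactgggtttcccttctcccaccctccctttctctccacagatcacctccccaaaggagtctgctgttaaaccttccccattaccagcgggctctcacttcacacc

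The E-box form CAGCTG, singled out after these sequences were seen, begins 10 bases before the start of Klhl40, 127 before that of Klhl41 and 90 before that of Klhl34. The MEF2 match of Klhl41 begins 63 bases before its start, and the Klhl31 window holds neither motif. Searched on both strands, CAGCTG, itself an E-box, was in 10 of 45 windows of the 34 members with a sequence, some of which overlap, and in 13.0% of all 32851 RefSeq windows of this length. The E-box CANNTG was in 24 of the 45 and in 66.2% of all windows, and the MEF2 consensus in 1 of the 45 and in 2.9% of all. The members named without a sequence are Klhl8, Klhl14, Klhl24, Klhl30, Klhl38 and Kbtbd11. A match is a description of letters and not of binding.

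More Kelch BTB genes were lower than higher in Nf1Prx1 triceps. The mean was lower for 33 of the 40 members (82.5%), against 58.3% of all genes. The median member differed by -0.19 on the log2 scale, against -0.035 over all genes. Of the 40, 9 fell (22.5%, against 5.0% of all genes called lower) and 1 rose (2.5%, against 3.36% called higher). The genes that fell were Klhl30, Klhl38, Klhl40, Klhl21, Klhl8, Klhl34, Klhl7, Klhl12 and Kbtbd2, and the gene that rose was Klhl5. In the limma fit without the block 0 of the 40 passed, with a lowest adjusted p of 0.121, and 12 had an unadjusted p under 0.05, all of them lower (30% of members, against 9.04% of all genes lower and 4.54% higher at that limit).

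**Figure D1:**
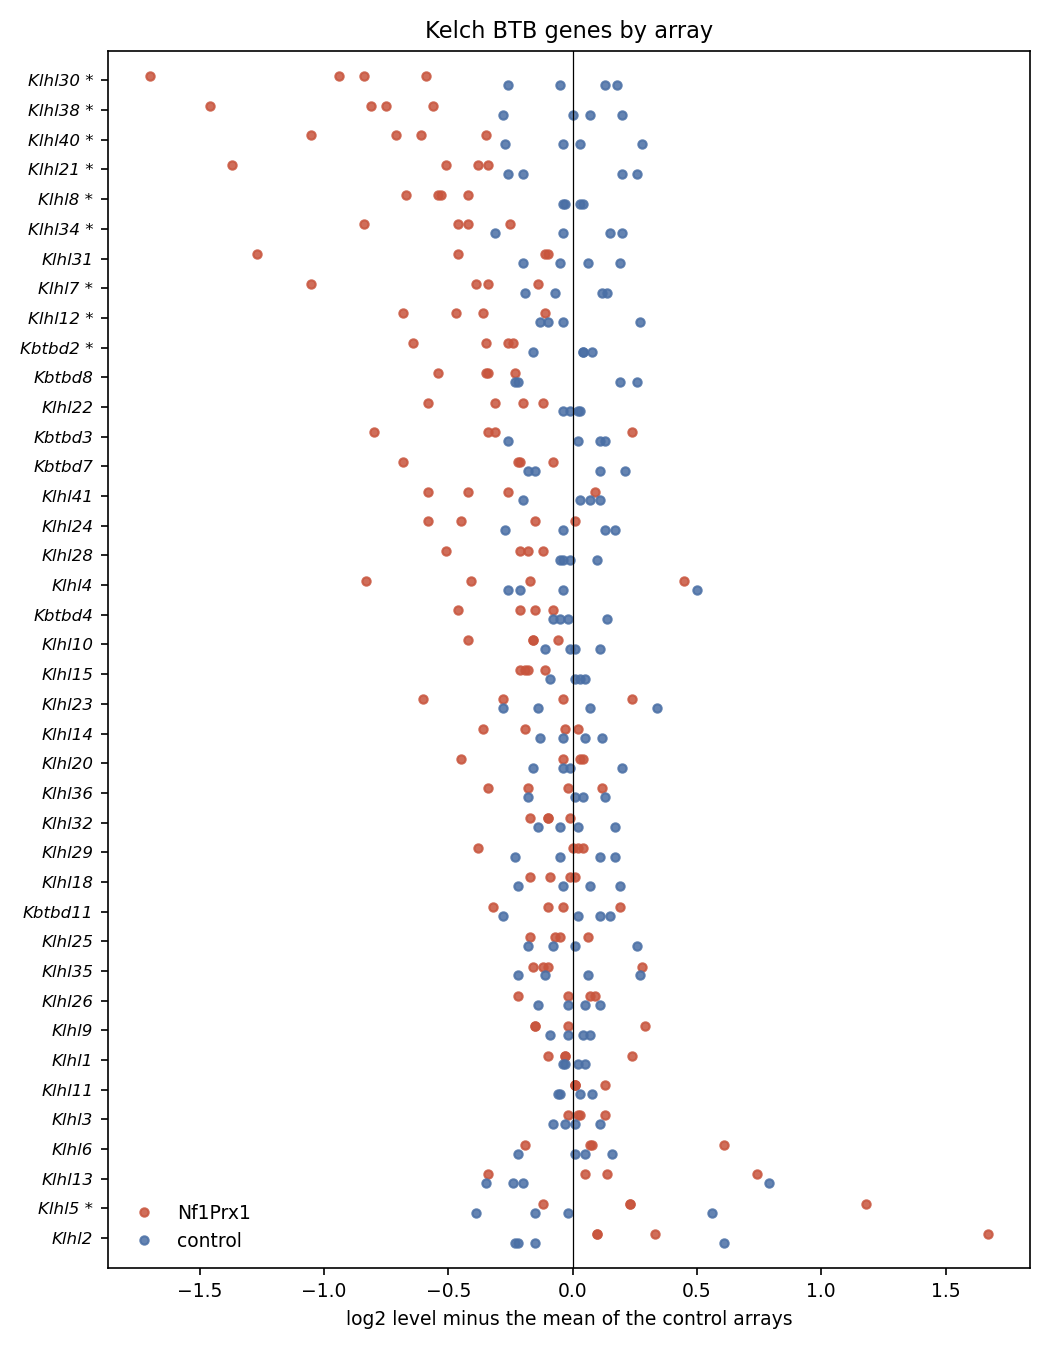
The 40 Kelch BTB genes are listed from the most negative to the most positive mean difference, and each point is 1 array (Nf1Prx1 above, control below, 4 each), as its log2 level minus the mean of the control arrays. Asterisks mark the 10 genes that passed in the fit with the replicate block; the Nf1Prx1 points of the upper genes lie left of the control points, and those of most genes overlap them.

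The groups did not overlap for 9 members, all of them lower in Nf1Prx1 (22.5%, against 6.04% of all genes lower and 2.58% higher). These were Klhl30, Klhl38, Klhl40, Klhl21, Klhl8, Kbtbd2, Klhl22, Klhl28 and Klhl15. Within the numbered pairs 18 members were lower in the Nf1Prx1 array all 4 times (45%, against 21.3% of all genes), and 2 were higher all 4 times (5%, against 12.0%), Klhl5 and Klhl2. The median member lay below the control mean by 0.21, 0.27, 0.10 and 0.15 in Nf1Prx1 arrays 1 to 4. It lay at -0.03, 0.00, 0.03 and -0.01 in control arrays 1 to 4. The numbers of members called depended on which arrays entered. With the block and without the arrays numbered 1, 2, 3 or 4, limma called 3 (Klhl30, Klhl38, Klhl8), 6 (those with Klhl40, Klhl21 and Klhl34), 1 (Klhl30) or 0 members, all lower, among 719, 1202, 206 or 50 genes in all.

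The muscle members Klhl30, Klhl38 and Klhl40 had the most negative differences of all 40, and Klhl34 also fell. Klhl30, a transcript found mainly in striated muscle, had log2 levels of 7.87, 8.63, 8.97 and 8.72 in Nf1Prx1 arrays 1 to 4, against 9.31, 9.69, 9.74 and 9.51 in control arrays 1 to 4. Every Nf1Prx1 array lay below every control array, and Nf1Prx1 array 1 was the lowest of all. Klhl30 was 2.02-fold lower in Nf1Prx1 (log2 difference -1.02, SE 0.22 without and 0.12 with the block, limma adjusted p = 0.139 without and 0.00977 with the block). Without the arrays numbered 1 it differed by -0.88, and it was the member called there in the fit without the block (limma adjusted p = 0.0398).

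Klhl38 stood at 9.57, 10.28, 10.47 and 10.22 in Nf1Prx1 arrays 1 to 4 and at 11.03, 10.75, 11.23 and 11.11 in control arrays 1 to 4. The groups were again fully apart, and the gap was widest between the arrays numbered 1. It fell 1.86-fold (log2 difference -0.90, SE 0.19, limma adjusted p = 0.139 without and 0.0197 with the block). Klhl40, the stabiliser of nebulin and leiomodin 3, had 7.87, 8.22, 8.57 and 8.32 in Nf1Prx1 arrays 1 to 4, against 8.66, 9.21, 8.95 and 8.89 in the control arrays. All 4 Nf1Prx1 values were below the lowest control value, that of control array 1. Klhl40 fell 1.60-fold (log2 difference -0.68, SE 0.17, limma adjusted p = 0.158 without and 0.0185 with the block).

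Klhl34, a gene of the X chromosome, was at 6.84, 7.43, 7.26 and 7.23 in Nf1Prx1 arrays 1 to 4 and at 7.38, 7.88, 7.65 and 7.84 in control arrays 1 to 4. The groups overlapped through control array 1, which lay below Nf1Prx1 array 2, while the Nf1Prx1 array was the lower of each numbered pair. It fell 1.41-fold (log2 difference -0.49, SE 0.16, limma adjusted p = 0.22 without and 0.0185 with the block). Xist, the transcript of the inactive X chromosome, was at 5.52, 5.86, 10.94 and 11.35 in Nf1Prx1 arrays 1 to 4 and at 5.52, 10.54, 5.55 and 10.85 in the controls, so the arrays numbered 2 and 3 differ in it in opposite directions. The Y-linked Eif2s3y was at 9.78, 8.61, 4.75 and 4.81 in Nf1Prx1 arrays 1 to 4 and at 9.52, 5, 9.74 and 4.71 in the controls. By these transcripts each group held males and females, and the pairs numbered 2 and 3 each joined a male with a female. The differences of Klhl34 in those pairs were -0.45 and -0.38, and in the pairs numbered 1 and 4 they were -0.53 and -0.61. Of the other X-linked members, Klhl15 was lower without overlap (7.28 ± 0.04 in Nf1Prx1 and 7.45 ± 0.07 in control triceps, SD, n = 4, limma adjusted p = 0.226 with the block), and Klhl4 and Klhl13 overlapped.

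**Figure D2:**
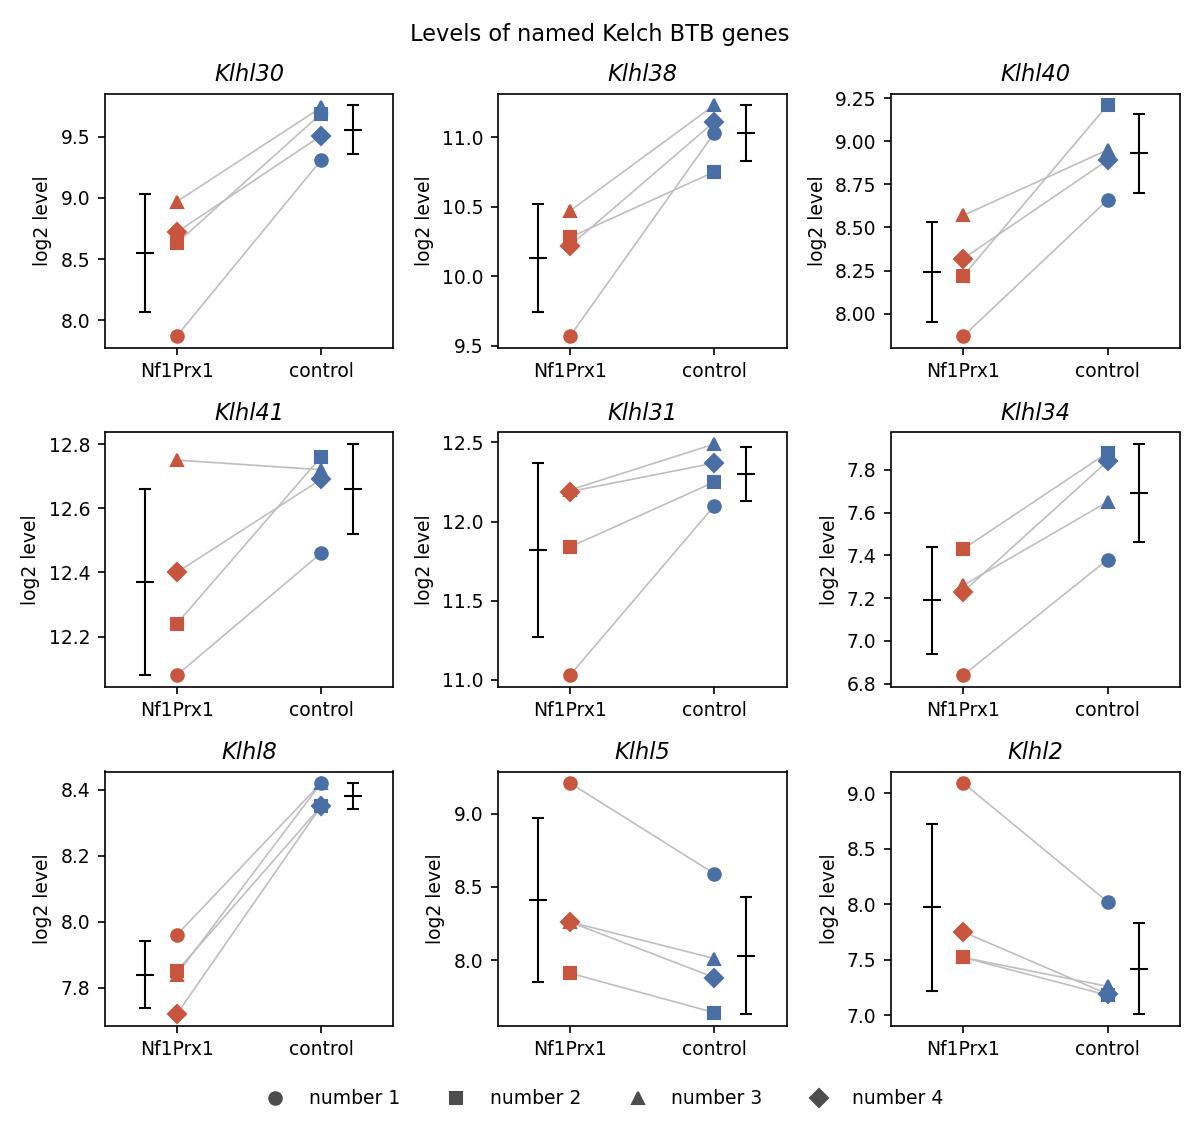
Log2 levels of 9 Kelch BTB genes in each array, with Nf1Prx1 left of control, grey lines joining arrays of the same number and bars giving the mean ± SD of 4 arrays. Klhl30, Klhl38, Klhl40 and Klhl8 show no overlap between the groups, while Klhl5 and Klhl2 are highest in the arrays numbered 1 of both groups.

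Klhl41 and Klhl31, the other muscle members, had smaller or more uneven differences and did not pass. Klhl41, also called sarcosin, which acts in the assembly of myofibrils, had 12.08, 12.24, 12.75 and 12.40 in Nf1Prx1 arrays 1 to 4, against 12.46, 12.76, 12.72 and 12.69 in control arrays 1 to 4. Nf1Prx1 array 3 was as high as the controls and the other Nf1Prx1 arrays were lower than all of them, so the groups overlapped (log2 difference -0.29, SE 0.15 without and 0.11 with the block, limma adjusted p = 0.138 with the block). For Klhl31, whose loss in mice disturbs the structure of muscle fibres, the levels were 11.03, 11.84, 12.20 and 12.19 in Nf1Prx1 and 12.10, 12.25, 12.49 and 12.37 in control arrays. The difference of -0.49 (SE 0.24 without and 0.15 with the block, limma adjusted p = 0.0904 with the block) was -0.29 without the arrays numbered 1 and -0.22 without Nf1Prx1 array 1 alone. The second cluster of Klhl31 gave -0.60.

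Other family symbols in the series values were not in the gene column of the deposited table, and so are no members, among them the nemaline myopathy gene Kbtbd13. Kbtbd13 had 6.92, 7.54, 7.75 and 7.53 in Nf1Prx1 arrays 1 to 4, against 8.07, 8.46, 8.40 and 8.07 in control arrays, and fell 1.76-fold without overlap (limma adjusted p = 0.0141 with the block). Kbtbd12 had 7.67, 8.04, 8.45 and 8.21 in Nf1Prx1 arrays, against 8.78, 9.0, 9.24 and 8.64 in control arrays, and fell 1.77-fold without overlap (limma adjusted p = 0.0145 with the block). Its other cluster gave a difference of -0.77. Klhl33 ranged from 7.54 to 10.02 in Nf1Prx1 and from 8.45 to 10.37 in control arrays and did not pass (log2 difference -0.76, limma adjusted p = 0.0762 with the block). Klhl42 rose 1.34-fold (limma adjusted p = 0.0216 with the block), and Kbtbd6, at 6.01 in Nf1Prx1 and 5.87 in control triceps, did not pass.

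Of the members with roles outside the sarcomere, Klhl8, Klhl21, Klhl7, Klhl12 and Kbtbd2 fell. Klhl8, whose worm counterpart KEL-8 takes part in the turnover of glutamate receptors, stood at 7.96, 7.85, 7.84 and 7.72 in Nf1Prx1 arrays 1 to 4, against 8.42, 8.35, 8.42 and 8.35 in control arrays 1 to 4. The gap between the groups was wider than the range within either, and the arrays numbered 1 did not stand out. Klhl8 fell 1.46-fold (log2 difference -0.54, SE 0.08, limma adjusted p = 0.121 without and 0.0148 with the block), and its unadjusted p ranked 15th of 19938 genes without the block. Without the arrays numbered 1 its difference was -0.57.

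Klhl21, which in human cells brings Aurora B to the spindle midzone, had 8.83, 9.86, 9.83 and 9.70 in Nf1Prx1 arrays 1 to 4 and 9.94, 10, 10.46 and 10.40 in control arrays. Nf1Prx1 array 1 lay far below the other Nf1Prx1 arrays, which came close to control arrays 1 and 2 without reaching them. The fall was 1.57-fold (log2 difference -0.65, SE 0.24 without and 0.15 with the block, limma adjusted p = 0.0409 with the block). It shrank without Nf1Prx1 array 1, to a difference of -0.41, and did not pass after quantile normalization with the block (adjusted p = 0.0783). Kbtbd2, which marks the p85 alpha subunit of PI3 kinase for degradation in mice, had 8.34, 8.06, 8.45 and 8.44 in Nf1Prx1 arrays, against 8.74, 8.54, 8.77 and 8.74 in control arrays. It fell 1.30-fold without overlap (limma adjusted p = 0.0344 with the block), and it passed after quantile normalization with the block (adjusted p = 0.0447). With the block it did not pass when the arrays of any number were left out (limma adjusted p from 0.0809 to 0.106).

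Klhl7, mutated in people with an inherited retinal degeneration, had 9.70, 9.04, 9.75 and 9.95 in Nf1Prx1 arrays 1 to 4, against 10.22, 9.90, 10.02 and 10.23 in the controls. The groups overlapped through Nf1Prx1 array 4 and control array 2, and Nf1Prx1 array 2 was the lowest (log2 difference -0.48, SE 0.19 without and 0.12 with the block, limma adjusted p = 0.0468 with the block). Without Nf1Prx1 array 2 the Klhl7 difference was -0.29. Klhl12, which with cullin 3 ubiquitinates the coat protein Sec31 for the export of large cargo such as collagen, had 7.02, 6.81, 7.38 and 7.13 in Nf1Prx1 and 7.36, 7.45, 7.76 and 7.38 in control arrays. Only Nf1Prx1 array 3 reached the control range (log2 difference -0.40, SE 0.14 without and 0.09 with the block, limma adjusted p = 0.0409 with the block). After quantile normalization with the block Klhl7 and Klhl12 no longer passed, at adjusted p values of 0.0595 and 0.0516, and with array weights their differences were -0.30 and -0.25. Neither passed with the block when the arrays of any number were left out.

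The members with positive differences behaved differently across the arrays. Klhl5 had 9.21, 7.91, 8.26 and 8.26 in Nf1Prx1 arrays 1 to 4, against 8.59, 7.64, 8.01 and 7.88 in control arrays 1 to 4. The arrays numbered 1 were the highest of each group, the groups overlapped, and the Nf1Prx1 array was the higher of each pair. Klhl5 rose 1.30-fold (log2 difference 0.38, SE 0.29 without and 0.09 with the block, limma adjusted p = 0.619 without and 0.0473 with the block), and it did not pass when the arrays of any number were left out. Its difference was 0.12 without Nf1Prx1 array 1, 0.57 without control array 1 and 0.25 without control array 2. Klhl2, which binds actin and with cullin 3 targets WNK kinases, had 9.09, 7.52, 7.52 and 7.75 in Nf1Prx1 arrays, against 8.02, 7.18, 7.26 and 7.19 in control arrays. It had the most positive mean difference, 0.55 (SE 0.36), but did not pass (limma adjusted p = 0.547 without and 0.0526 with the block), and without the arrays numbered 1 the difference was 0.38.

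Markers of some other cell types moved with the groups, where 5.0% of all genes were called lower and 3.36% higher with the block. Of 4 endothelium, 3 Schwann cell, 5 brown adipocyte, 5 neutrophil and 3 B cell markers 0 passed. Of 7 adipocyte markers 7 rose, and their mean level ran from 10.20 to 12.43 in Nf1Prx1 and from 8.70 to 11.27 in control arrays, highest in array 1 of each group. Array 1 of each group was also the highest for Klhl5, Klhl2, Klhl13, Klhl6 and Klhl4, the last with a negative difference. The same held for the means of the brown adipocyte, neutrophil, B cell and fibroblast markers. Of 5 fibroblast markers 4 rose (10.38 to 11.08 in Nf1Prx1 and 9.80 to 10.75 in control arrays), and of 5 macrophage markers 3 rose (8.29 to 8.86 and 7.74 to 8.73). Of 8 slow-fibre markers 4 fell (8.26 to 10.28 in Nf1Prx1 and 9.60 to 10.26 in control arrays), with Nf1Prx1 array 3 the highest. Of 6 striated muscle markers 1, Myod1, fell, with a median difference of -0.10 for the list and mean levels of 11.27 to 11.86 in Nf1Prx1 and 11.61 to 11.88 in control arrays. Of 9 fast-fibre markers 0 passed with the block, with a median of -0.16 (12.61 to 13.29 in Nf1Prx1 and 13.13 to 13.29 in control arrays). Averaged over Klhl40, Klhl41, Klhl31, Klhl30, Klhl34 and Klhl38, the deviation from the control mean was -1.15, -0.59, -0.32 and -0.52 in Nf1Prx1 arrays 1 to 4 and -0.21, 0.06, 0.10 and 0.04 in control arrays. The part of cell types in these differences was not tested.

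Apart from Klhl2, the remaining members neither passed nor belong to the muscle group. Klhl22 (8.63 ± 0.20 in Nf1Prx1 and 8.93 ± 0.03 in control triceps) and Klhl28 (8.50 ± 0.17 and 8.75 ± 0.07, SD, n = 4) were lower without overlap at limma adjusted p values of 0.12 and 0.122 with the block. Klhl22 is known in human cells to act on the mTORC1 regulator DEPDC5. Klhl24, whose product acts on keratin 14 in human skin, had a difference of -0.29, and Kbtbd8, an adaptor of neural crest development in frogs, one of -0.37, with limma adjusted p values of 0.103 and 0.0587 with the block. Kbtbd3, Kbtbd7, Klhl4, Kbtbd4, Klhl10, Klhl23 and Klhl14 lay between -0.30 and -0.14. Klhl20, Klhl36, Klhl32, Klhl29, Klhl18, Kbtbd11, Klhl25, Klhl35, Klhl26, Klhl9, Klhl1, Klhl11 and Klhl3 lay between -0.11 and 0.04. Kbtbd11 gave -0.07 in the cluster used but 0.33 in its other cluster, and its only probe set in the authors' deposited table was higher by 0.34 (unadjusted p = 0.0303). Klhl3, the adaptor for WNK4 in the kidney, had a difference of 0.04 (SE 0.08), and Klhl9 one of 0.00 (SE 0.11). Klhl6, an adaptor of B cells, had 7.73 in Nf1Prx1 array 1 and 6.92 to 7.19 in the other Nf1Prx1 arrays, against 6.89 to 7.27 in controls, and the B cell markers were also highest in Nf1Prx1 array 1 (mean level 8.37, against 6.22 to 6.59 in the other Nf1Prx1 arrays and 6.30 to 7.05 in controls). The mean over all arrays was below 7.31, the middle of the array medians, for 11 members, and 9 of the 10 members called with the block lay above it.

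The authors' deposited table resolves the members into 327 probe sets below the cluster level, between 1 and 14 per gene. Its notes give 4 arrays a group, but the group size computed from its T and spread columns was 4.99 to 5.01 at 125669 probe sets, and it is therefore not tied to the 8 arrays above. Of the 327 probe sets, 215 were lower in the authors' deposited table in Nf1Prx1 (65.7%, against 53.4% of all 234873), and their median difference was -0.13, against -0.03 over all. The authors' deposited list of lower probe sets, all with F above 20 and at least 1.5-fold, held 4 of the 327 and their list of higher ones 0, against 0.367% and 0.765% of all probe sets. At an unadjusted p under 0.05 in the authors' deposited table, 55 were lower and 13 higher, against 7.42% and 7.23% of all.

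The 4 listed probe sets belong to Klhl8 (2), Klhl12 and Klhl7. The 4th of the 10 Klhl8 probe sets, in order of ID, averaged 6.7 in Nf1Prx1 and 7.8 in control muscle in the authors' deposited table, 2.15-fold lower, and the 5th 7.5 and 8.4, 1.80-fold lower. Along Klhl8 the differences in that deposited table ran from -1.10 to 0.20, with 8 probe sets lower and the first and last slightly higher. The 5th Klhl12 probe set averaged 5.9 in Nf1Prx1 and 7.1 in control muscle in the authors' deposited table, 2.32-fold lower, among differences from -1.22 to 0.14 over its 14. The 9th Klhl8 probe set, with F of 51.9 in the authors' deposited table but 1.45-fold lower, is not listed. None of the 327 passed once p values of the authors' deposited table were adjusted here over all probe sets (0.0682 to 0.122 for the 4 listed and 0.0548 for the 9th of Klhl8).

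**Figure D3:**
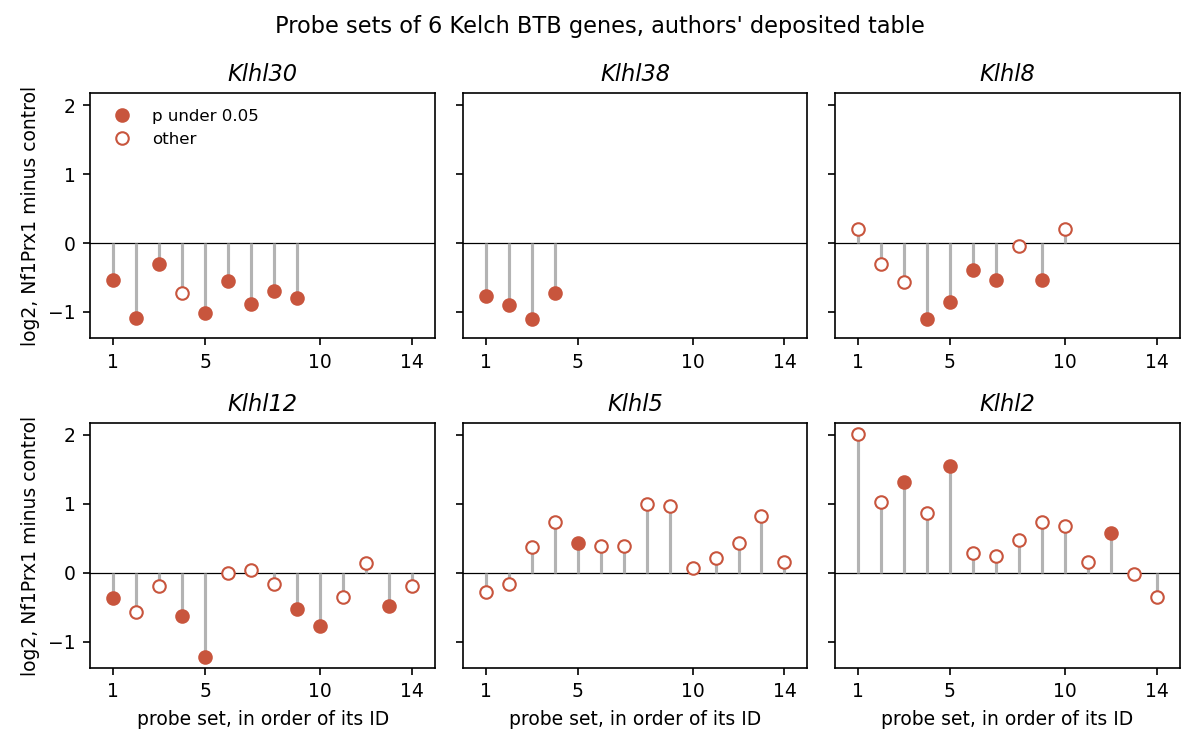
Log2 differences (Nf1Prx1 minus control) of each probe set of 6 Kelch BTB genes in the authors' deposited table, in order of probe set ID, with filled points for an unadjusted p under 0.05. All probe sets of Klhl30 and Klhl38 lie below 0, those of Klhl8 and Klhl12 are uneven, and those of Klhl5 and Klhl2 lie mostly above 0.

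Klhl30 and Klhl38 were lower along their whole length in the authors' deposited table. All 9 Klhl30 probe sets were lower, by -0.31 to -1.09, and 8 had an unadjusted p under 0.05. All 4 Klhl38 probe sets were lower, by -0.73 to -1.10, each with an unadjusted p under 0.05. Klhl40 had 9 of 9 lower (-0.02 to -0.92, 3 with an unadjusted p under 0.05), Klhl7 11 of 11 (7 with one), Klhl31 9 of 9 and Klhl41 7 of 7 (0 with one in each). Klhl34 was not lower throughout in the authors' deposited table. Of its 4 probe sets 3 were lower, 2 of them with an unadjusted p under 0.05, and the differences ran from -0.55 to 0.1. The higher one, the 2nd, had the highest mean level of the 4 in both groups. For Klhl2, 12 of 14 probe sets were higher in the authors' deposited table, by up to 2.01 at the first, while the 13th and 14th differed by -0.02 and -0.35. Klhl5 had 12 of 14 higher, with 1 at an unadjusted p under 0.05.

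Some genes of the ligase that these adaptors serve fell as well. Of 23 measured genes of the cullin 3 ligase core and its neddylation cycle 6 fell and 0 rose, and the mean of 21 was the lower one in Nf1Prx1, with a median difference of -0.35. Over all genes, 5.0% were called lower and 3.36% higher, 58.3% had a lower mean, and the median was -0.035. Rbx1, the RING subunit, had 9.19, 8.57, 9.17 and 8.94 in Nf1Prx1 arrays 1 to 4, against 9.71, 9.41, 9.43 and 9.52 in control arrays, without overlap (1.46-fold lower, limma adjusted p = 0.0264 with the block). Cul3 itself had 11.40, 11.68, 11.92 and 11.91 in Nf1Prx1 and 11.83, 12.01, 12.11 and 11.88 in control arrays, overlapped and did not pass (log2 difference -0.23, adjusted p = 0.204). The others that fell were Cops5, Cops3 and Cops4 of the COP9 signalosome, which removes Nedd8 (-0.62, -0.54 and -0.51), Dcun1d2, which promotes neddylation (-0.67), and Cand2, the muscle form of the cullin exchange factor (-0.53).

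Of 6 Kelch BTB genes with other symbols 1, Ipp, fell and 0 rose (5.0% and 3.36% of all genes), with a median difference of -0.13. Ipp had 6.66 to 7.04 in Nf1Prx1 and 7.31 to 7.47 in control arrays (limma adjusted p = 0.0168 with the block). The mean was lower for 3 of the 6, while Enc1, Ivns1abp and Rcbtb2 had differences of 0.22, 0.18 and 0.05. The groups did not overlap for 2 of the 6, Ipp and Keap1, both lower (6.04% of all genes). Keap1, which holds the stress factor Nrf2 in check, was lower without overlap but did not pass (8.36 ± 0.15 in Nf1Prx1 and 8.70 ± 0.05 in control triceps, SD, n = 4, adjusted p = 0.0707).

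Of 11 muscle partners and substrates 3 fell and 0 rose (5.0% and 3.36% of all genes), with a median difference of -0.37, against -0.035 over all genes. Lmod3, the leiomodin that Klhl40 stabilises, had 9.52, 9.98, 10.67 and 10.19 in Nf1Prx1 arrays 1 to 4, against 10.63, 11.09, 10.88 and 10.76 in control arrays, and fell 1.68-fold with overlap of Nf1Prx1 array 3 and control array 1 (limma adjusted p = 0.0353 with the block). Neb, for nebulin, had 12.92 to 13.58 in Nf1Prx1 and 13.10 to 13.52 in control arrays and did not pass (log2 difference -0.08, SE 0.16 without and 0.09 with the block, limma adjusted p = 0.648 with the block). Nrap, a partner of Klhl41, fell 1.68-fold (11.39 ± 0.44 in Nf1Prx1 and 12.14 ± 0.39 in control triceps, adjusted p = 0.0145). Flnc, the filamin that Klhl31 targets, fell 1.88-fold (10.74 ± 0.85 and 11.65 ± 0.66, SD, n = 4, adjusted p = 0.0201).

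**Figure D4:**
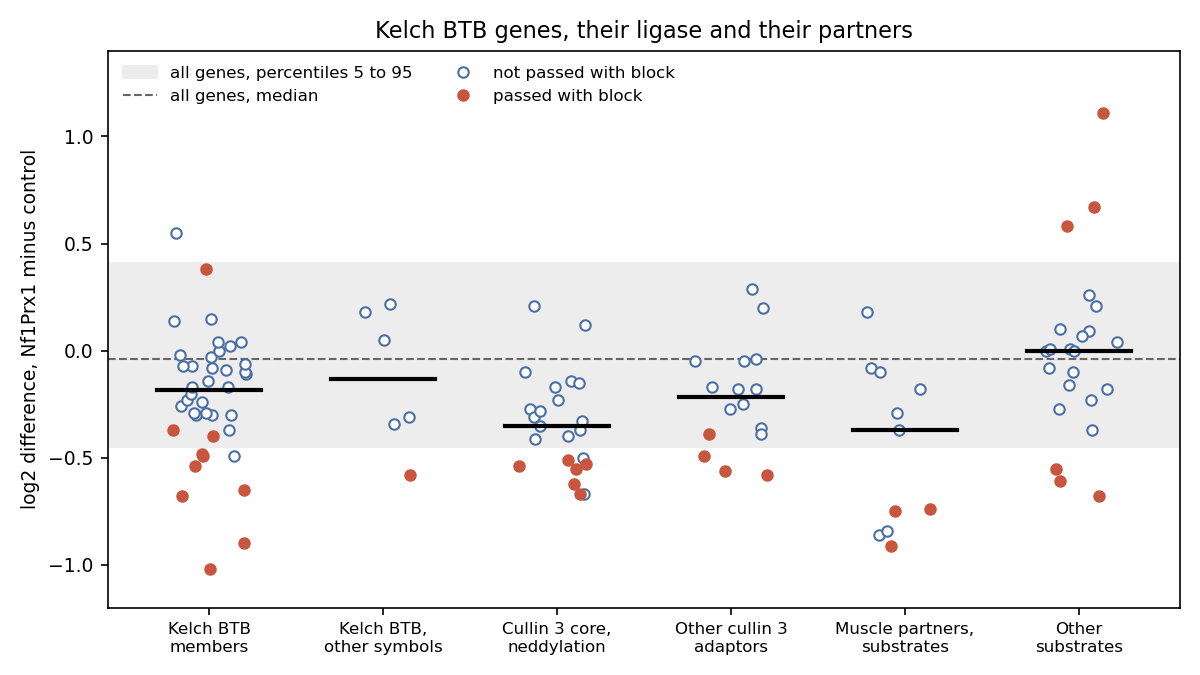
Each point is the log2 difference of 1 gene (Nf1Prx1 minus control), grouped by list, filled where the gene passed in the fit with the replicate block. Bars are list medians, and the grey band and dashed line are the percentiles 5 to 95 (-0.45 to 0.41) and the median of all genes; most points lie inside the band, and the filled points lie mostly below it.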

How the data were processed

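The deposited series values are log2 levels of transcript clusters; RMA and the Affymetrix Expression Console are named in the submitters' processing notes. Versions and genome build are not given in the sources used here. Per the file headers and notes, the authors' deposited probe set table holds group means and standard deviations of log2 intensity, unadjusted p-values, a ratio of control over mutant and the F score of an ANOVA. Its estimates were turned to Nf1Prx1 minus control.

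Of 35556 clusters, 21789 had 1 symbol, 1621 several and 12146 none listed. Symbols were updated by Entrez ID (21698 clusters), which gave 19938 genes, 999 of them with several clusters. The comparison used limma 3.58.1 under R 4.3.3 (two-sided, Benjamini-Hochberg over all genes, threshold 0.05), without and with the replicate number as a block. Same-numbered arrays correlated at 0.71, 0.57, 0.39 and 0.30 for numbers 1 to 4, each above 0.1, and no source states a pairing. Labels say biological replicates from separate animals.

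On simulated unpaired arrays of 19938 genes, the fit without the block recovered 19 of 100 changes of 0.5 and 72 of 100 changes of 1 (log2), with 4 false calls, and the fit with the block 0 and 0. Simulated arrays of the same number shared no variation, unlike the real ones. This run therefore does not measure the recovery or false calls of the fit with the block on these data. The members, lists and tests were chosen with earlier results of these data known. The rule for named genes takes Nf1, the muscle members, members that pass with or without the block, the largest mean difference in each direction, and up to 4 genes per other list with the smallest p, besides Cul3, Rbx1, Neb, Lmod3, Nrap and Flnc. Genes named beyond it (such as Cand2, Klhl22, Klhl28, Klhl15, Klhl6 and Keap1) were chosen after their values were seen. Alternatives covered normalization, dim genes (below 7.31), array weights, an intensity trend, cluster choice and arrays left out.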

Additional observations from a re-analysis of the deposited data

Results flagged for a closer look

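In 8 of 80 groups of 4 arrays (40 members in Nf1Prx1 and in control triceps), 1 array lay far from the other 3 by Dixon's criterion at 95%. Chance alone flags about 1 in 20 groups. Nf1Prx1 array 1 stood at 8.83 for Klhl21 (others 9.70 to 9.86), at 7.69 for Klhl29 (others 8.07 to 8.11) and at 9.09 for Klhl2 (others 7.52 to 7.75). Control array 1 stood at 8.02 for Klhl2 (others 7.18 to 7.26) and at 8.92 for Klhl13 (others 7.77 to 7.92). Nf1Prx1 array 2 stood at 7.77 for Klhl35 (others 7.33 to 7.39) and at 8.36 for Klhl11 (others 8.24), and control array 2 at 8.54 for Kbtbd2 (others 8.74 to 8.77). For Klhl2 array 1 was the high one in each group, and for Klhl13 Nf1Prx1 array 1 was also high, at 8.87.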

How the results depend on the processing

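The fit without the block called 0 genes and 0 members. With the replicate block limma called 1667 genes and 10 members. Array weights, without the block, gave 3070 genes and 9 members, quantile normalization 2 genes, quantile normalization with the block 1482 genes and 7 members, and leaving out the arrays numbered 1 of both groups 96 genes and 1 member. Leaving out the pairs numbered 1, 2, 3 or 4 under the block gave 719, 1202, 206 or 50 genes and 3, 6, 1 or 0 members. Leaving out 1 array without the block gave 0 to 3 genes (3 without Nf1Prx1 replicate 3) and 0 members. The causes were not tested. The members' median of -0.19 moved by less than the replicate spread of 0.0601 in all 21 alternatives, as did the probe set median of -0.13 at a minimum level of 6. Nf1 stayed negative and not passed in all 21. Over the 12 members followed through the alternatives, 216 values kept direction and side of the threshold, 35 passed only there, and 0 changed sign. Klhl30 ran from -1.16 to -0.79, Klhl8 from -0.59 to -0.50 and Klhl5 from 0.12 to 0.57. Background was not measured here, so how far dim members such as Klhl12 lie above it is not known.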

Other observations

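Adaptors of cullin 3 outside the kelch family gave the following values. Of 16 measured, 4 fell and 0 rose in the limma fit with the block (5.0% and 3.36% of all genes), and the median difference was -0.22, against -0.035 over all genes. These were Spop (-0.58), Spopl (-0.49), Rhobtb3 (-0.56) and Btbd6 (-0.39), with adjusted p values of 0.0485, 0.0312, 0.0197 and 0.0444.

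Of 23 proteins reported elsewhere as substrates of Kelch BTB ligases, 3 fell and 3 rose at the transcript level (5.0% and 3.36% of all genes), and the median difference was 0.00. Pik3r1, for the PI3 kinase subunit that Kbtbd2 targets, had 11.42, 10.52, 10.86 and 11.39 in Nf1Prx1 arrays 1 to 4, against 10.70, 10.43, 10.11 and 10.63 in control arrays, and rose 1.5-fold with overlap (limma adjusted p = 0.0377). Ppp2r5b, for a phosphatase subunit that Klhl15 targets, had 8.60, 8.51, 8.78 and 8.53 in Nf1Prx1 arrays, against 9.33, 9.20, 9.32 and 9.01 in control arrays, and fell 1.53-fold without overlap (limma adjusted p = 0.0132). Rapsn, which clusters acetylcholine receptors in the muscle fibre membrane facing the nerve ending, fell 1.60-fold (limma adjusted p = 0.0307). Dapk1, a kinase that Klhl20 targets, rose 1.59-fold (limma adjusted p = 0.0197). Ulk1 fell by 0.55 and Acly, for ATP citrate lyase of fat synthesis, rose by 1.11 on the log2 scale. Acly was at 10.83 in Nf1Prx1 array 1 and 10.78 in control array 1, the arrays with brown adipocyte transcripts, and at 9.04 to 9.88 in the other Nf1Prx1 and 7.77 to 8.20 in the other control arrays. Whether protein levels of any of these differ was not measured here.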
